A study of Mus musculus with 6 samples.

Results

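The genes described here are those that store fat in muscle fibres as droplets and release it again: the lipases Pnpla2 and Lipe, the droplet coat proteins Plin2, Plin4 and Plin5, the fatty acid supply genes Lpl, Cd36, Fabp3 and Angptl4, and the triacylglycerol synthesis gene Lpin1. They were taken from a list of gene names. Of the 10 named genes, 9 are listed among the 13363 genes of the deposited table, and Angptl4 was not analysed here. Expression was measured by RNA sequencing of the gastrocnemius, a calf muscle, from 3 C26 mice and 3 control mice, with 1 muscle from 1 mouse in each sample. All were male BALB/c mice that were 6 weeks old at purchase and had 1 week of acclimation. The C26 mice received 500000 C26 cells under the skin of the flank. C26 is a single mouse colon adenocarcinoma line, derived from the same strain, whose tumors make the host lose weight and muscle. The controls received no cells, so the tumor and the loss of muscle that comes with it cannot be told apart.

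Fatty acids reach a fibre when lipoprotein lipase on the capillary wall splits the triacylglycerol of lipoproteins, and CD36 and cytosolic binding proteins carry them inward. There they are burned or joined to glycerol again and packed into droplets, whose surface is covered by perilipins. Adipose triglyceride lipase takes off the first fatty acid, hormone-sensitive lipase the next and monoacylglycerol lipase the last. Activators, inhibitors and the perilipins set how much lipase reaches the droplet.

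The sequences before a listed start of each of the 4 genes that rose, Pnpla2, Lpin1, Plin4 and Plin5, are shown because these genes moved together. They come from the RefSeq promoter table of build GRCm38.p6, which held 10 start windows for 8 of the 10 named genes, and are given 5′ to 3′ on the strand of the gene. Capitals mark matches to the letters searched: a GC box in Pnpla2 and Plin5 and a TATAA in Plin4.
Pnpla2, chr7:141454938-141455187, plus strand: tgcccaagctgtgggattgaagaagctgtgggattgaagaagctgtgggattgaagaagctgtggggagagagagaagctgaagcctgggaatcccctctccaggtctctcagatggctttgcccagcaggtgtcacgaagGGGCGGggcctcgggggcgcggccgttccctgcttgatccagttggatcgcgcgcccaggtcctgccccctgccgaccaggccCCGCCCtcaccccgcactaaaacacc
Lpin1, chr12:16610967-16611216, minus strand: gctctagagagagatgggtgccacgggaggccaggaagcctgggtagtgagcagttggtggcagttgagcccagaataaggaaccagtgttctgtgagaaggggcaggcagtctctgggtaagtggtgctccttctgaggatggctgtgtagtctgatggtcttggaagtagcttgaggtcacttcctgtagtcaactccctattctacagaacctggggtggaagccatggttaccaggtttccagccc
Plin4, chr17:56109804-56110032, minus strand: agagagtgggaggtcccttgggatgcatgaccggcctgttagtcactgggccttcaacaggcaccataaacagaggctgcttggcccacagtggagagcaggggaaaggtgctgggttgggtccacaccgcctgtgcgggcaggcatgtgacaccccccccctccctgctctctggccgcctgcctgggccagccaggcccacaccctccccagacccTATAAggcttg
Plin5, chr17:56117597-56117798, minus strand: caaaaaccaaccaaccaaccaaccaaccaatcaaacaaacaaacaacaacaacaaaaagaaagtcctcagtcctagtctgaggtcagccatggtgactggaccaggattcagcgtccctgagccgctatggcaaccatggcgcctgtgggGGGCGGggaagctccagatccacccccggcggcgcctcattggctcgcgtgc
The stretches lie outside exons annotated by GENCODE and end at base -1 for Pnpla2 and Lpin1, -22 for Plin4 and -49 for Plin5, counted from the listed start. The RefSeq genes Lpin1, Plin4 and Plin5 reach farther upstream, so the starts shown for them are internal ones. Their printed stretches lie wholly (Lpin1) or in part (Plin4 and Plin5) within the gene. Each window of 250 bases before to 50 bases after a start was searched on both strands, and the shares below are of 32851 such windows in the table. The GC box, GGGCGG, lies in 35.7% of all windows, and was found in Pnpla2 at -109 to -104 and, reversed, at -26 to -21, and in Plin5 at -100 to -95 and, past the end of the printed stretch, at 12 to 17. Plin5 has a further start in the table, whose window is not printed and held a GC box at -239 to -234 and at -53 to -48 and no TATAA. Windows of Lipe, Plin2 and Cd36 held the GC box as well. TATAA lies in 24.9% of all windows and was found in Plin4 at -32 to -28 and in Plin5 at -27 to -23, the latter past the end of the printed stretch; these letters were chosen after the windows had been seen. The Lpin1 window held none of the letters searched. The FoxO core GTAAACA, found in 3.65% of all windows, occurred among the named genes in 1 window of Lipe, and the E-box CACGTG (7.15%) in another window of Lipe and in that of Plin2. The PPAR/RXR direct repeat (AGGTCA, any base, AGGTCA; 0.0396% of all windows), the glucocorticoid response element (AGAACA, any 3 bases, TGTTCT; 0.00913%) and the full CRE TGACGTCA (1.79%) were not found in the 10 windows. None of these letters overlap one another in the 4 stretches. These are matches of letters in short windows and nothing more. Plin4 and Plin5 are direct neighbours on the same strand of chromosome 17.

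The values are FPKM, a level per length of transcript and depth of library, as the authors deposited them. They summed to between 531061 and 585169 per C26 muscle and between 626992 and 688300 per control muscle. Depth is unknown without read counts, and the spread between 3 muscles is the error used. Fold changes are differences of log2(TPM + 1) after TMM scaling, C26 minus control, and an adjusted p is from limma with the Benjamini-Hochberg adjustment over all 13363 genes. A gene is said to have risen or fallen where that adjusted p is under 0.05. Fast fibre transcripts led in all 6 muscles, as the tissue label has it. The 11 fast fibre markers, such as Tnnt3 and Tnnc2, summed to 81605 to 124340 FPKM in C26 muscle and 178991 to 194500 in controls. Of these 0 rose (also 0 at an unadjusted p under 0.05 by limma), 3 fell and 8 passed in neither direction. The controls differed in how much fat cell RNA they held. The mean log2 level of 11 listed fat cell markers was 6.53, 5.64 and 3.35 in control replicates 1, 2 and 3 and 2.67, 2.35 and 1.65 in C26 replicates 1, 2 and 3. In bulk muscle, fewer cells of a type and less RNA per cell cannot be told apart. Log2 fold changes without control replicate 3, or against it alone, stand beside some results that they move. A lone control has no spread of its own, and this muscle was chosen after its values were seen, so the latter are given here without a p-value.

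Of the 9 genes, 4 rose in C26 muscle, 0 fell and 5 passed in neither direction. Of all genes, 19.4% rose and 14.5% fell, shares that depend on the processing: 2590 genes rose and 1931 fell, but 1678 and 2504 with FPKM as deposited, and leaving out C26 replicate 1 or 2 or control replicate 1 gave 1131, 1528 and 1152 that rose and 669, 946 and 724 that fell. At an unadjusted p under 0.05 limma had 6 of the 9 higher and 0 lower, beside 25.1% and 22% of all genes. With a fold change above 4 as well, 3 of the 9 rose, Pnpla2, Plin5 and Lpin1, and 0 fell, against 1.77% and 1.73% of all genes. Lpin1 came below that fold, at log2 fold changes of 1.91 with FPKM as deposited, 1.79 under quantile normalization and 1.84 without control replicate 3, and Plin5 lost its call without control replicate 1. On the log2 scale 6 of the 9 had every C26 muscle above every control, 0 had every C26 muscle below and in 3 the groups overlapped, where 27% of all genes lay wholly above and 26.5% wholly below. The median log2 fold change was 1.40 over the 9 genes and -0.05 over all genes.

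**Figure D1:**
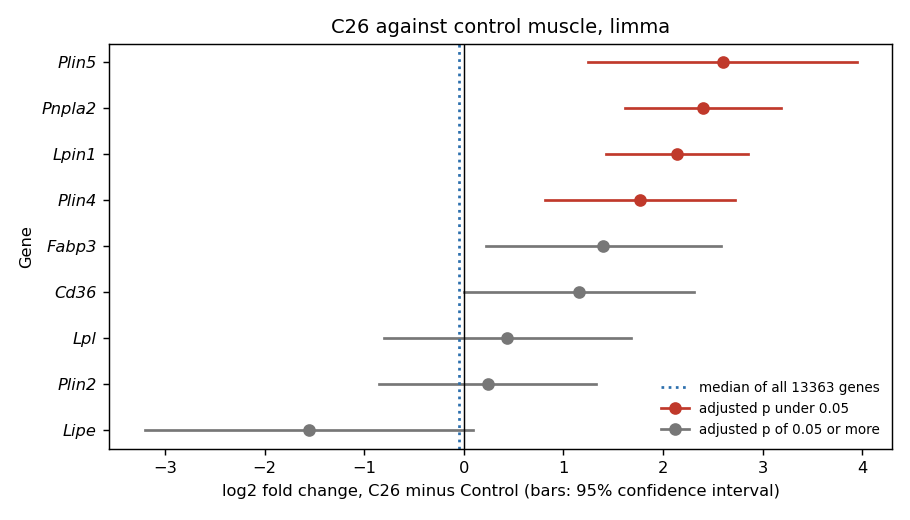
Log2 fold change of each of the 9 genes, C26 minus control, with the 95% confidence interval from limma (3 muscles per group). The 4 genes in red, Plin5 at 2.60, Pnpla2 at 2.40, Lpin1 at 2.14 and Plin4 at 1.77, have an adjusted p under 0.05, and the dotted line is the median of all 13363 genes.

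Pnpla2 encodes adipose triglyceride lipase, the enzyme that opens the breakdown of stored triacylglycerol. It stood at 579, 585 and 416 FPKM in C26 replicates 1, 2 and 3 and at 135, 149 and 73.5 FPKM in control replicates 1, 2 and 3. The lowest C26 muscle lay well above the highest control. The means were 527 ± 96.0 and 119 ± 40.0 FPKM (SD, n = 3 each), and the log2 fold change was 2.40 (SE 0.33, 95% interval 1.62 to 3.19), a 5.29-fold rise with an adjusted p of 0.00522 by limma. Among all listed genes Pnpla2 moved from percentile 96.1 of the mean level in control muscle to percentile 99.0 in C26 muscle. The rise held with each muscle left out in turn, at log2 fold changes of 2.04 to 2.66 and adjusted p values of at most 0.0290 by limma.

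Lipe encodes hormone-sensitive lipase, which acts mainly on diacylglycerol and is most abundant in fat cells. Its levels were 9.07, 8.56 and 9.05 FPKM in the C26 muscles and 69.7, 44.6 and 9.91 FPKM in the controls. The C26 muscles were nearly alike, and control replicate 3 stood beside them while the other controls were higher. The log2 fold change was -1.56 (SE 0.69, 95% interval -3.20 to 0.09) with an adjusted p of 0.122 by limma. Without control replicate 3 it was -2.41 with an adjusted p of 0.00358 by limma, and against control replicate 3 alone it was 0.14. The fat cell markers had the same order of controls, and their part in the Lipe values was not tested. Lipe shares its locus with 4732471J01Rik, and with the strand of counting not stated the reads of the overlap cannot be told apart.

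The transcripts of proteins that act on these lipases did not move as a block. G0s2 encodes the inhibitor that binds adipose triglyceride lipase. It stood at 2.55, 3.25 and 3.15 FPKM in C26 muscle and at 54.1, 42.2 and 16.9 FPKM in control muscle, opposite to Pnpla2. Its log2 level fell by 3.07 (SE 0.44, adjusted p 0.00598 by limma), and against control replicate 3 alone the difference was -2.01. Abhd5, the coactivator of the same lipase, was at 16.3, 13.7 and 13.9 FPKM in C26 muscle and 13.8, 14.5 and 8.96 FPKM in controls, a log2 difference of 0.45 (adjusted p 0.188 by limma). Hilpda, another inhibitor, gave -0.16 (adjusted p 0.748 by limma).

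Set against each other within a muscle, Pnpla2 exceeded G0s2 by 7.54, 7.25 and 6.82 on the log2 scale in C26 replicates 1, 2 and 3 and by 1.31, 1.80 and 2.08 in control replicates 1, 2 and 3. In FPKM the lipase was 227, 180 and 132 times its inhibitor in the C26 muscles and 2.49, 3.52 and 4.35 times in the controls. The groups were far apart on both scales. The mean log2 differences were 7.21 ± 0.36 and 1.73 ± 0.39 (SD, n = 3 each), which are 5.48 apart with a two-sided exact permutation p of 0.1, the smallest that 3 against 3 can give. This difference holds both genes' changes and depends little on scaling between muscles. G0s2 is also abundant in fat cells, whose markers were higher in the controls, and that part was not tested.

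**Figure D2:**
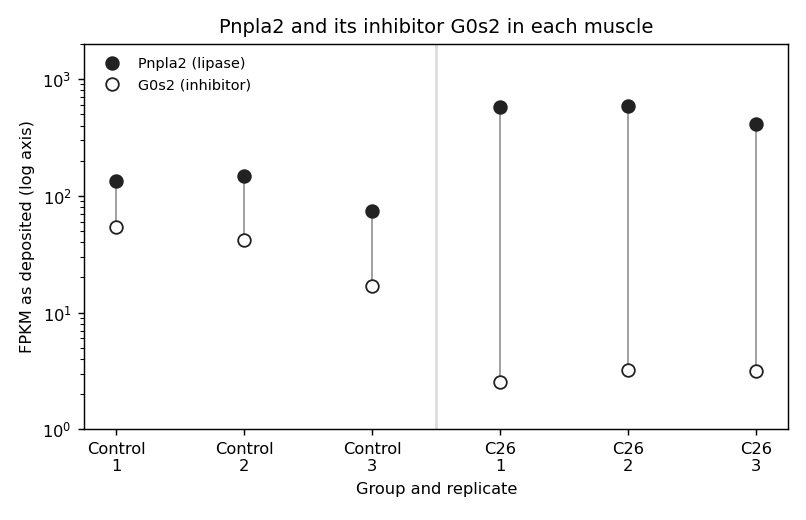
FPKM of Pnpla2 (filled) and G0s2 (open) in each of the 6 muscles on a log axis, joined by a line within a muscle. The ratio of lipase to inhibitor runs from 2.49 to 4.35 in the controls and from 132 to 227 in the C26 muscles.

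Over the list of 18 lipolysis enzymes and regulators, 16 were listed, of which 3 rose, 6 fell and 7 passed in neither direction, with a median log2 fold change of -0.14. The named genes with the largest changes were Ces1d, a carboxylesterase lipase, at -3.11 (adjusted p 0.0137 by limma), G0s2, Pnpla3, a relative of Pnpla2, at -2.49 (0.0446) and the monoacylglycerol lipase Abhd6 at 2.13 (0.0351). Mgll, the main monoacylglycerol lipase, stood at 10.4, 8.11 and 9.20 FPKM in C26 muscle and 82.6, 39.1 and 16.5 FPKM in control muscle and fell by 1.76 on the log2 scale (adjusted p 0.0494 by limma). Against control replicate 3 alone Mgll was -0.51, Pnpla3 -0.76 and Ces1d -1.58. With 1 muscle left out, the call of Mgll was lost except for control replicate 3 (log2 fold changes -2.39 to -1.23, adjusted p up to 0.135 by limma), and that of Abhd6 except for C26 replicate 3 (1.57 to 2.86, up to 0.112). The call of Pnpla3 was lost without replicate 1 or 2 of either group (-3.35 to -1.98, adjusted p up to 0.137 by limma), and that of Ces1d without replicate 1 of either group (-3.87 to -2.72, up to 0.0564). With all muscles kept, the calls of Mgll (without TMM), Pnpla3 (quantile normalization) and Abhd6 (FPKM as deposited) were lost as well. Under the replicate block those of Mgll (adjusted p 0.0631 by limma) and Pnpla3 (0.0963) were lost too. The Mgll controls stood in the order of the fat cell markers, whose part was not tested.

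The transcripts of the perilipins on muscle droplets differed from one another. Plin2, the coat protein of most cell types, was at 36.2, 33.9 and 22.8 FPKM in C26 muscle and 43.6, 40.6 and 14.8 FPKM in controls. The groups overlapped, and control replicate 3 was the lowest of the 6. The log2 fold change was 0.24 (95% interval -0.85 to 1.33, adjusted p 0.699 by limma), and it turned to -0.12 under quantile normalization and to -0.29 without control replicate 3. The interval leaves room for changes of either sign. Plin2 overlaps Gm12551.

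Plin4, a perilipin of fat and muscle droplets, stood at 203, 237 and 202 FPKM in C26 muscle and 120, 79.0 and 40.2 FPKM in controls. The C26 muscles were close together and all above the controls. The means were 214 ± 20.1 and 79.7 ± 39.9 FPKM (SD, n = 3 each), a log2 fold change of 1.77 (SE 0.40) or 3.40-fold, with an adjusted p of 0.0183 by limma. The call was lost without C26 replicate 1 (log2 fold change 1.81, adjusted p 0.0625 by limma) and without C26 replicate 2 (1.72, 0.0608). Plin4 overlaps Hdgfl2. Fat cells express Plin4 too, and within the controls it stood in the order of the fat cell markers, whose part was not tested. It was 2.70 against control replicate 3 alone, the lowest control for Plin4 itself.

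Plin5, the perilipin of oxidative tissues, which tethers droplets to mitochondria, was at 19.4, 21.5 and 45.3 FPKM in C26 muscle and 2.92, 9.85 and 3.13 FPKM in controls. C26 replicate 3 was the highest, control replicate 2 stood above the other controls, and the groups did not overlap. The means were 28.8 ± 14.4 and 5.30 ± 3.94 FPKM (SD, n = 3 each), and the log2 fold change of 2.60 (SE 0.56), or 6.06-fold, had an adjusted p of 0.0163 by limma.

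C26 replicate 3 also held the highest mean of 9 slow and oxidative fibre markers, with 7.36 on the log2 scale against 5.77 and 4.09 in C26 replicates 1 and 2. The control muscles were at 6.85, 5.88 and 6.21, so these markers did not separate the groups, and 0 of the 9 rose or fell (also 0 at an unadjusted p under 0.05 by limma). Their part in the Plin5 values was not tested. Without C26 replicate 3 the Plin5 log2 fold change was 2.27 (adjusted p 0.0251 by limma), while without control replicate 1 the log2 fold change was 2.31 with an adjusted p of 0.0633 by limma.

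**Figure D3:**
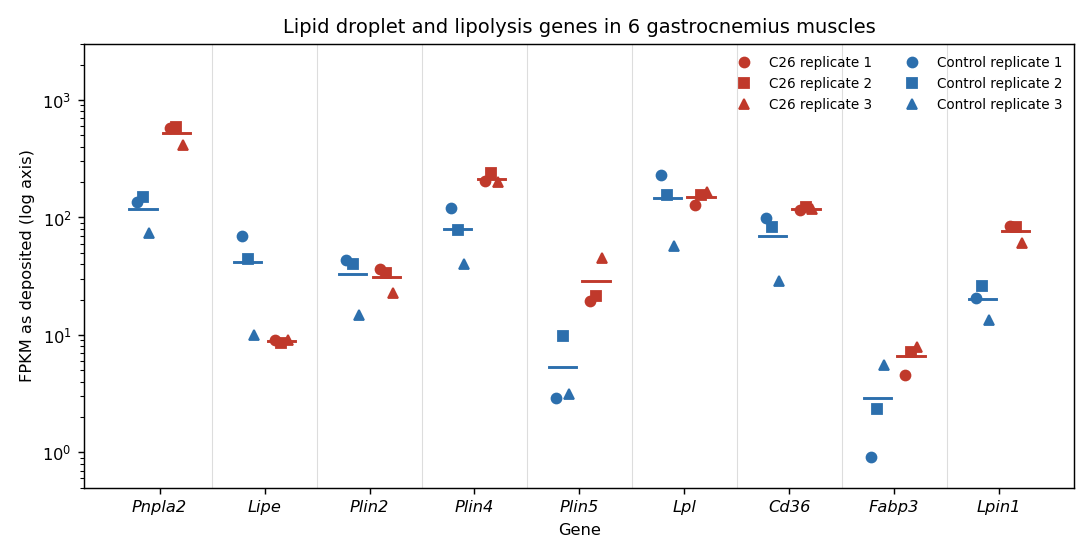
FPKM of the 9 genes in each muscle on a log axis. Each point is 1 muscle, the marker shape gives the replicate and the bar is the mean of 3; the control triangles (replicate 3) lie lowest of the controls for Pnpla2, Lipe, Plin2, Plin4, Lpl, Cd36 and Lpin1.

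Plin1 and Plin3, the perilipins outside the named genes, went opposite ways. Plin3, found in most cells, stood at 48.7, 67.5 and 27.5 FPKM in C26 muscle and 11.4, 16.7 and 11.99 FPKM in controls (log2 fold change 1.93, adjusted p 0.00917 by limma). Plin1, the fat cell perilipin, was at 0.36, 0.20 and 0.08 FPKM and 45.4, 33.6 and 2.93 FPKM, and fell by 4.34 on the log2 scale (adjusted p 0.0171 by limma). Among the 14 listed of 17 droplet coat and assembly genes, 4 rose, 5 fell and 5 passed in neither direction, with a median log2 fold change of -0.18. The named ones were Plin1, Plin3, the fat cell droplet fusion protein Cidec at -3.69 (adjusted p 0.0463 by limma) and Fitm1, a muscle protein of droplet formation, at -1.73 (0.0214). Plin1 and Cidec are fat cell markers as well. Leaving out replicate 1 or 2 of either group lost the calls of Plin1 (adjusted p up to 0.0609 by limma) and Fitm1 (up to 0.0808), and leaving out any muscle but control replicate 3 lost that of Cidec (up to 0.127). With all muscles kept, the Cidec call was lost as well without TMM (adjusted p 0.0534 by limma) and under quantile normalization (0.0539). Plin1 was -1.95 and Cidec -1.33 against control replicate 3 alone.

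Lpl encodes lipoprotein lipase. It stood at 127, 155 and 165 FPKM in C26 muscle and 229, 157 and 57.0 FPKM in control muscle. The controls spanned 4.02 times from lowest to highest and enclosed all 3 C26 values. The log2 fold change was 0.44 (95% interval -0.81 to 1.68, adjusted p 0.531 by limma). It was -0.18 without control replicate 3 and 1.68 against control replicate 3 alone, so its direction followed the control used. Fat cells express Lpl strongly, and the order of the controls is that of the fat cell markers, whose part was not tested. Gpihbp1, the capillary protein that holds the lipase, gave 0.49 (adjusted p 0.138 by limma).

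Cd36, the fatty acid translocase, was at 117, 123 and 118 FPKM in C26 muscle and 99.2, 82.6 and 28.5 FPKM in controls. The C26 muscles were nearly equal and all above the controls. The means were 119 ± 3.14 and 70.1 ± 36.9 FPKM (SD, n = 3 each), with a log2 fold change of 1.16 (SE 0.48, 95% interval 0.00 to 2.31) and an adjusted p of 0.106 by limma. The difference rests in size on control replicate 3, since it was 0.56 without that muscle (adjusted p 0.0285 by limma) and 2.34 against it alone. The controls stood in the order of the fat cell markers, whose part was not tested. Capillary cells express Cd36 too. Of 10 endothelial markers, such as Pecam1 and Egfl7, 0 rose (also 0 at an unadjusted p under 0.05 by limma), 2 fell and 8 passed in neither direction. They summed to 75.0 to 82.9 FPKM in C26 and 92.5 to 144 FPKM in control muscle. After scaling the groups overlapped. Their mean log2 level was 3.59, 3.66 and 3.64 in C26 replicates 1, 2 and 3. In control replicates 1, 2 and 3 it was 4.18, 3.84 and 3.62.

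Fabp3 encodes the muscle and heart fatty acid binding protein. It stood at 4.55, 7.23 and 7.92 FPKM in C26 muscle and 0.91, 2.33 and 5.53 FPKM in controls. In FPKM control replicate 3 lay above C26 replicate 1, while after scaling the groups did not overlap. Unlike the other supply genes, it was highest in control replicate 3 of the controls. The log2 fold change was 1.40 (SE 0.49, 95% interval 0.23 to 2.58) with an adjusted p of 0.0668 by limma, and without control replicate 3 it was 1.87 (adjusted p 0.0221 by limma). It was 0.47 against control replicate 3 alone. With the replicate block Fabp3 passed as higher (adjusted p 0.0318 by limma). Fabp3 overlaps Zcchc17.

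Of 17 genes that handle lipoprotein lipase and its substrate, 12 were listed, of which 2 rose, 3 fell and 7 passed in neither direction, with a median log2 fold change of -0.06. Vldlr, a lipoprotein receptor, rose by 1.67 (adjusted p 0.00588 by limma) and Furin, a protease that can cut the lipase, by 1.47 (0.00743). Apoc1 fell by 2.37 (adjusted p 0.0197 by limma) and Apoe by 1.27 (0.0231), both apolipoproteins. The Apoc1 call was lost without C26 replicate 1 or control replicate 1 or 2 (adjusted p up to 0.0705 by limma), and that of Apoe without C26 replicate 2 or control replicate 1 or 3 (up to 0.0836). Of 16 other uptake and trapping genes, 14 were listed, of which 1 rose, 4 fell and 9 passed in neither direction, with a median of -0.43. Acsl6, an acyl-CoA synthetase, was at 1.51 (adjusted p 0.0223 by limma), while its relative Acsl5 was at -1.61 (0.00921), the binding protein Fabp5 at -2.38 (0.0100) and the caveolar protein Cavin2 at -1.24 (0.0487). The Acsl6 call was lost without C26 replicate 1 or 2 or control replicate 1 or 3 (adjusted p up to 0.0824 by limma), and that of Cavin2 on leaving out any muscle but control replicate 3 (up to 0.142). With all muscles kept, the Cavin2 call was lost as well without TMM (adjusted p 0.0518 by limma) and under the replicate block (0.0758). Against control replicate 3 alone Apoc1 was -1.57, Fabp5 -1.37 and Cavin2 -0.47.

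Lpin1 encodes lipin 1, a phosphatidate phosphatase that makes diacylglycerol for triacylglycerol synthesis and also acts in the nucleus as a coactivator. It stood at 85.2, 82.8 and 61.0 FPKM in C26 muscle and 20.5, 26.2 and 13.5 FPKM in control muscle. Every C26 muscle was far above every control. The means were 76.3 ± 13.3 and 20.1 ± 6.35 FPKM (SD, n = 3 each), and the log2 fold change of 2.14 (SE 0.30), or 4.41-fold, had an adjusted p of 0.00554 by limma. It held with each muscle left out in turn, at 1.84 to 2.42 and adjusted p values of at most 0.0302 by limma. Lpin1 overlaps Ntsr2.

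The other lipins rose as well. Lpin2 was at 4.89, 3.14 and 3.87 FPKM in C26 muscle and 0.97, 0.71 and 1.23 FPKM in controls (log2 fold change 1.70, adjusted p 0.00355 by limma). Lpin3 changed by 0.89 (adjusted p 0.00795 by limma). Its mean FPKM was below that of Lpin2 in C26 muscle (2.17 against 3.97) but not in controls (1.06 against 0.97). In both groups Lpin1 had the highest FPKM of the 3 lipins. Of 22 other genes of triacylglycerol synthesis, 18 were listed, of which 3 rose, 1 fell and 14 passed in neither direction, with a median of -0.33. Besides Lpin2 and Lpin3 the acyltransferase Agpat3 rose by 1.49 (adjusted p 0.00646 by limma). Gpd1, which makes glycerol 3-phosphate, fell by 2.69 (adjusted p 0.0130 by limma), a call lost without C26 replicate 1 or control replicate 1 (up to 0.0546). Dgat1 and Dgat2, which add the last fatty acid, gave -0.42 and -0.83 (adjusted p 0.393 and 0.488 by limma). Without control replicate 3 they were -0.82 and -1.86 (adjusted p 0.0325 and 0.0290 by limma), and against it alone 0.39 and 1.23.

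Nuclear receptors that fatty acids or fasting act on were set beside the 9 genes, since several of these are known targets. Of 10 named, 9 were listed, of which 3 rose, 1 fell and 5 passed in neither direction, with a median log2 fold change of 0.58. Ppard was at 17.5, 19.4 and 19.3 FPKM in C26 muscle and 8.89, 8.97 and 9.15 FPKM in controls, a change of 1.21 (SE 0.14, adjusted p 0.00350 by limma) with little spread in either group. Its partner Rxra rose by 1.14 (adjusted p 0.0118 by limma) and Nr4a3 by 2.75 (0.00261), while Rxrg fell by 2.14 (0.0130). The Rxra call was lost without C26 replicate 1 (adjusted p 0.0529 by limma), and that of Rxrg without C26 replicate 1 or control replicate 1 (up to 0.0554). Ppara was at 0.58 (adjusted p 0.310 by limma) and Pparg, the fat cell receptor, at -1.69 (0.0842). Without control replicate 3 Pparg was -2.47 (adjusted p 0.00473 by limma), and against it alone -0.13. Over all 6 lists together, 83 of 100 genes were listed. Beside 19.4% of all genes that rose and 14.5% that fell, 16 of the 83 rose, 20 fell and 47 passed in neither direction. Their median was -0.17. The count that fell was 5 without C26 replicate 1 or control replicate 1 (11 rose in each), 9 without C26 replicate 2 (12 rose), 10 without control replicate 2 (14 rose) and 27 without control replicate 3 (13 rose).

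**Figure D4:**
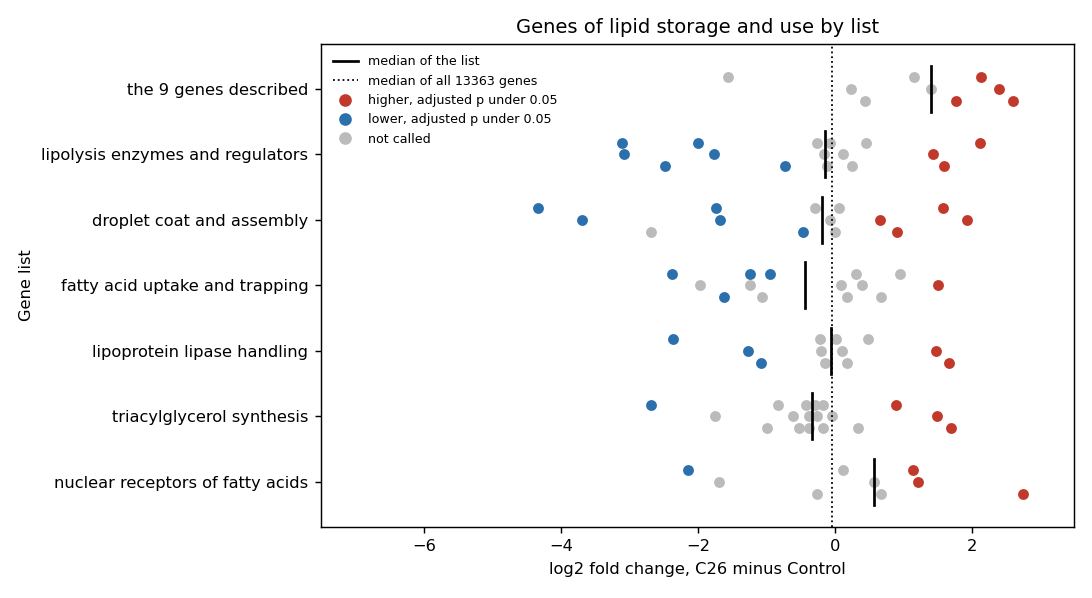
Log2 fold change, C26 minus control, of each listed gene by list. Red points rose and blue points fell at an adjusted p under 0.05, grey points passed in neither direction, and the black bar is the median, 1.40 for the 9 genes and between -0.43 and 0.58 for the 6 lists.

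The order of the 9 genes by level, which FPKM allows since it is per length, differed between the groups. In C26 muscle the mean FPKM ran from Pnpla2 (527) through Plin4 (214), Lpl (149), Cd36 (119), Lpin1 (76.3), Plin2 (31.0), Plin5 (28.8) and Lipe (8.89) to Fabp3 (6.57). Of the 8 pairs of neighbours in that order, only Plin2 and Plin5 had overlapping values. In control muscle it ran from Lpl (148) through Pnpla2 (119), Plin4 (79.7), Cd36 (70.1), Lipe (41.4), Plin2 (33.0), Lpin1 (20.1) and Plin5 (5.30) to Fabp3 (2.92). There 7 of 8 pairs of neighbours overlapped, and only Lpin1 and Plin5 did not. By these means Lipe stood above Plin2, Lpin1 and Plin5 among the controls and below all of them in C26 muscle, but in control replicate 3 it was below Plin2 and Lpin1.

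The C26 muscles were more alike than the controls for each of the 9 genes. The highest C26 value was between 1.05 times (Cd36) and 2.33 times (Plin5) the lowest, while among controls the ratio lay between 1.94 (Lpin1) and 7.04 (Lipe). After scaling, 7 of the 9 genes were lowest in control replicate 3 of the controls, as were 45% of all genes. The exceptions were Plin5, which was lowest in control replicate 1, and Fabp3. The 4 genes that rose were above control replicate 3 alone by 3.12 (Pnpla2), 2.70 (Plin4), 3.15 (Plin5) and 2.73 (Lpin1) on the log2 scale, and this muscle was the lowest control for all of them but Plin5.

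**Figure D5:**
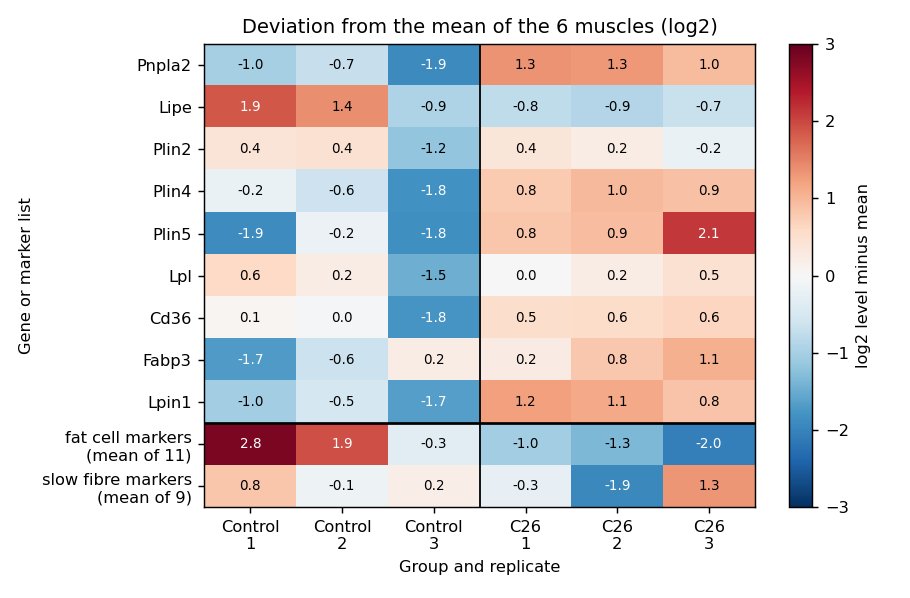
Log2 level of each of the 9 genes, and the mean of the fat cell and slow fibre markers, minus the mean over the 6 muscles; red is above and blue below it. Fat cell markers run from 2.8 in control replicate 1 to -2.0 in C26 replicate 3, Lipe is high in control replicates 1 and 2, and Pnpla2 and Lpin1 are below the mean in all 3 controls and above it in all 3 C26 muscles.

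Fat cell markers moved with the groups. Of 11 listed, 0 rose (also 0 at an unadjusted p under 0.05 by limma), 7 fell and 4 passed in neither direction, with a median log2 fold change of -3.16. They summed to 256 to 393 FPKM in C26 muscle and 544 to 4181 FPKM in controls. Fabp4 made up most of that sum, at 350, 256 and 248 FPKM in C26 muscle and 2957, 1590 and 443 FPKM in controls. Among the 9 genes, Lipe, Plin2, Plin4, Lpl and Cd36 had the order of the fat cell markers across the controls in FPKM. After scaling Plin2 left that order, with log2 levels of 6.05, 6.12 and 4.48 in control replicates 1, 2 and 3. The share of all genes with that order was not counted. The 4 genes that rose were higher in the group that held less fat cell RNA. Of the remaining lists, the 4 listed red blood cell markers all rose (median 1.21, Hba-a1 and Hba-a2 highest in level), and of 6 fibroblast markers, led by Dcn and Dpt, 0 rose (also 0 unadjusted by limma) and 2 fell. Of 8 macrophage markers 0 rose or fell, with 2 higher and 1 lower at an unadjusted p under 0.05 by limma. Lyz2 and Cd68 had the highest levels among them, and Mb and Myh2 among the slow fibre markers. The part of these cells in the levels of the 9 genes was not tested.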

How the data were processed

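Gastrocnemius RNA of 3 C26 and 3 control mice was analysed, with group and replicate number taken from the sample labels. The authors deposited FPKM values, which they made from single-end BGISEQ-500 reads after removing adaptor, low-quality and rRNA reads. Per their methods reads were aligned to GRCm38.p5 with bowtie2 and quantified with RSEM, whereas the submitters' processing notes list HISAT2 2.0.4, Bowtie2 2.2.5, RSEM 1.2.12 and mm9. This conflict was not resolved, and no coordinate here comes from the deposited values. The label for RNA extraction names a human cell line in part, unlike the tissue label. All 13363 listed genes are above 0 in every muscle and depth is unknown.

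FPKM were rescaled to TPM, divided by TMM factors (unweighted, trimming 30% of log ratios and 5% of mean levels) and log2 transformed with a pseudocount of 1, which understates the changes of low genes. Groups were compared with limma 3.58.1 (R 4.3.3) with empirical Bayes moderation and Benjamini-Hochberg adjustment over all genes. The scripts were checked on simulated data. Symbols were matched for 13327 Entrez IDs and not for 36. RefSeq tables gave promoters and gene overlaps. Figures used matplotlib 3.10.9 (Python 3.11.15, numpy 2.4.6).

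The genes described and the gene lists were chosen with earlier results of these data known. Named beside them are up to 4 genes per pathway list with the largest changes at an adjusted p under 0.05, 12 fixed partners whatever their result, and the 2 markers of highest FPKM per cell type list. The alternatives were quantile normalization, no TMM factors, the FPKM unscaled, a pseudocount of 0.1, removal of genes under a mean TPM of 1, the replicate block, a prior variance that follows intensity, and leaving out each muscle. Comparison with control replicate 3 alone was added after seeing the data. The planned comparison of Angptl4 with Lpl was not run, since Angptl4 was not analysed here.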

Additional observations from a re-analysis of the deposited data

How the results depend on the processing

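Pnpla2 and Lpin1 kept their direction and their call in every alternative and with each muscle left out. Over 7 alternatives in the processing, 61 of 63 values for the 9 genes kept direction and side of the threshold; Plin2 reversed to -0.12 under quantile normalization, and Fabp3 passed under the replicate block. For the 32 other named genes 9 of 224 values lost their call: Mgll and Cavin2 without TMM and under the replicate block, Pnpla3 under quantile normalization and the replicate block, Cidec without TMM and under quantile normalization, and Abhd6 with FPKM as deposited. With each muscle left out, 46 of 54 values of the 9 genes and 139 of 192 of the other named genes kept direction and side of the threshold, and 3 and 49 lost their call. Without control replicate 3, Plin2 was -0.29 (range over the 6 fits to 0.53) and Lpl -0.18 (to 0.84), and Lipe passed as lower. Across the 6 fits 3 to 6 of the 9 genes rose and 0 to 1 fell. Hilpda was 0.33 without C26 replicate 3 (range -0.47 to 0.33). Over these fits 1131 to 3311 of all genes rose and 669 to 2160 fell, and 5 to 27 of the pathway genes fell. FPKM as deposited gave 1678 genes higher and 2504 lower, against 2590 and 1931 after scaling, with a median over all genes of -0.14. No pairing of the muscles by replicate number is labelled or was seen. Deviations of same-numbered muscles correlated at -0.04, -0.08 and -0.11, and those of differently numbered ones between -0.10 and 0.13. Such correlations cannot settle whether the numbers pair the muscles, since deviations within a group depend on one another. With the replicate block 1844 genes rose and 1236 fell, 14 pathway genes rose and 13 fell, and 5 of the 9 genes rose. For control replicate 3 alone the fit has to borrow the spread of the C26 muscles, so its 816 higher, 1233 lower and 7 lower pathway genes at an adjusted p under 0.05 by limma are not counted as rises or falls; there Lipe was 0.14, Dgat1 0.39 and Dgat2 1.23. The causes were not tested. With depth unknown, counting error could not be set apart from the spread between muscles, which limits Fabp3 and other low genes most.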
